A study of Homo sapiens with 6 samples.

Results

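The transcripts of 50 genes of DNA replication and S phase were compared between WM164 melanoma cells carrying an HDAC8 expression vector and WM164 cells carrying its empty vector (EV). The genes were taken by symbol from a list chosen with earlier results of these data known. All 50 were found among the 60504 genes of the count table and passed the filter on low counts. In the HDAC8 libraries 11 of the 50 genes rose and 1 fell. The genes that rose were ORC6, MCM2, MCM4, MCM5, MCM7, MCM10, RFC2, LIG1, RPA1, UHRF1 and E2F2, by 1.53-fold to 2.21-fold, and the gene that fell was E2F7, to 0.662 of its EV level. Calls required a DESeq2 adjusted p under 0.05 together with a log2 fold change of 0.58 or more in either direction. Of the 21021 genes with an adjusted p, 5.57% were called higher and 5.44% lower by the same rule. Of 41 other replication and S phase genes, 3 were called higher and 1 lower. Because of how the lists were chosen, these contrasts carry no test.

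Replication of a chromosome starts at origins that are prepared in G1, when the origin recognition complex, CDC6 and CDT1 load the ring-shaped MCM helicase onto DNA. In S phase the helicase is switched on by CDC45 and the GINS complex, DNA is copied by the primase and the replicative polymerases on a sliding clamp of PCNA, and the lagging strand is joined from short pieces. Many of these genes are transcribed at the G1/S border under E2F transcription factors, and melanoma cells with an active BRAF pathway are known to enter this programme without the usual growth signals.

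WM164 is a human melanoma line with the BRAF V600E mutation, which all 6 libraries share. The EV group and the HDAC8 group had 3 RNA-seq libraries each, which the labels number 1 to 3 as biological replicates and which are called EV 1 to EV 3 and HDAC8 1 to HDAC8 3 here. Per the study's methods the cells were transfected with a plasmid and kept in hygromycin, which selects for the plasmid, and they are not described as single clones. The comparison addressed how expression of HDAC8, a class I deacetylase, changes transcription in this line. The labels do not say whether replicates were separate transfections or separate cultures, so the p-values measure the spread between these libraries.

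Total counts ran from 34741083 to 42041462 per library and overlapped between the groups. HDAC8 itself had a log2 fold change of 0.15 (SE 0.28, adjusted p = 0.856 by DESeq2) with overlapping groups, so no rise of its summed gene count was detectable in the libraries labelled HDAC8, and the 95% interval of its fold was 0.755 to 1.63. Whether transcripts of the vector were counted under this gene is not known, which limits the value as a check of the labels. HDAC8 1 stood apart from HDAC8 2 and HDAC8 3 (Pearson correlations of 0.9131 and 0.9369 across genes on the log2 scale, against 0.9461 between HDAC8 2 and HDAC8 3), and the genes that rest on it are named below. Mitochondrial transcripts made up between 9.66% and 12.8% of the EV counts and between 4.46% and 7.94% of the HDAC8 counts. All 7 melanoma markers were detected, with a summed level of 244897.8 to 328727.8 normalized counts in EV and 137043.5 to 182217.7 in HDAC8, and 5 of the 7 fell. Among markers of other cell types, KRT1 (keratinocyte), DCN (fibroblast) and CDH5 (endothelial) were at 0 in every library and PTPRC (leukocyte) had 3 counts in all. The summed leukocyte markers ran from 2357.3 to 3358.4 in EV and from 4325.0 to 6278.9 in HDAC8, most of it CD68, which was called higher at 1.90-fold (DESeq2 adjusted p = 3.13e-05). CD3E, a CD3 chain of the T cell receptor complex on the same list, was at 0 in every EV library. It was at 78.7, 91.1 and 50.1 normalized counts in HDAC8 1 to HDAC8 3, and was also called higher (DESeq2 adjusted p = 1.1e-06). The summed keratinocyte markers ran from 162.5 to 303.4 in EV and from 165.5 to 176.2 in HDAC8. The fibroblast markers ran from 2357.2 to 2852.2 and from 1148.4 to 2187.6, and the endothelial markers from 97.5 to 202.9 and from 114.3 to 218.0. Most of the fibroblast sum was LUM, at 2662, 2205 and 2519 in EV and 1054, 2158 and 1676 in HDAC8. LUM was not called (DESeq2 adjusted p = 0.0778). KRT10 and VWF made up most of the keratinocyte and endothelial sums. The part of these shifts in the results below was not tested.

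Levels are given as normalized counts, which are expected read counts divided by the DESeq2 size factor of the library. The 50 genes together took 0.264%, 0.262% and 0.251% of the counts in EV 1 to EV 3 and 0.415%, 0.357% and 0.367% in HDAC8 1 to HDAC8 3. Every HDAC8 library thus held a larger share than every EV library. In bulk RNA a larger share of cells in S phase and more RNA per cell cannot be told apart. The study reports that stable HDAC8 expression lowered the proliferation rate of a melanoma line sensitive to BRAF inhibition. How that relates to the levels here was not tested. The log2 fold change was above 0 for 42 of the 50 genes, against 50.6% of the 9553 genes with a mean level at least that of the lowest of the 50. Its median over the 50 genes was 0.42, with a range from -0.59 for E2F7 to 1.14 for ORC6, while the median over all 26162 genes in the fit was 0. Counted by the adjusted p alone, 15 genes passed in the upward direction, where 6.63% of all genes with an adjusted p did, and 1 passed in the downward direction, where 6.38% did. The 3 HDAC8 libraries lay above the 3 EV libraries without overlap for 23 genes and below them for 1, against 11.3% and 12.7% of all genes in the fit. At the expression level of the 50 genes these backgrounds were higher: 8.50% of 9551 genes were called higher, 7.65% were called lower, 18.9% lay above EV without overlap and 19.8% below it. By the adjusted p alone, 10.8% passed upward and 9.74% downward at that level.

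**Figure D1:**
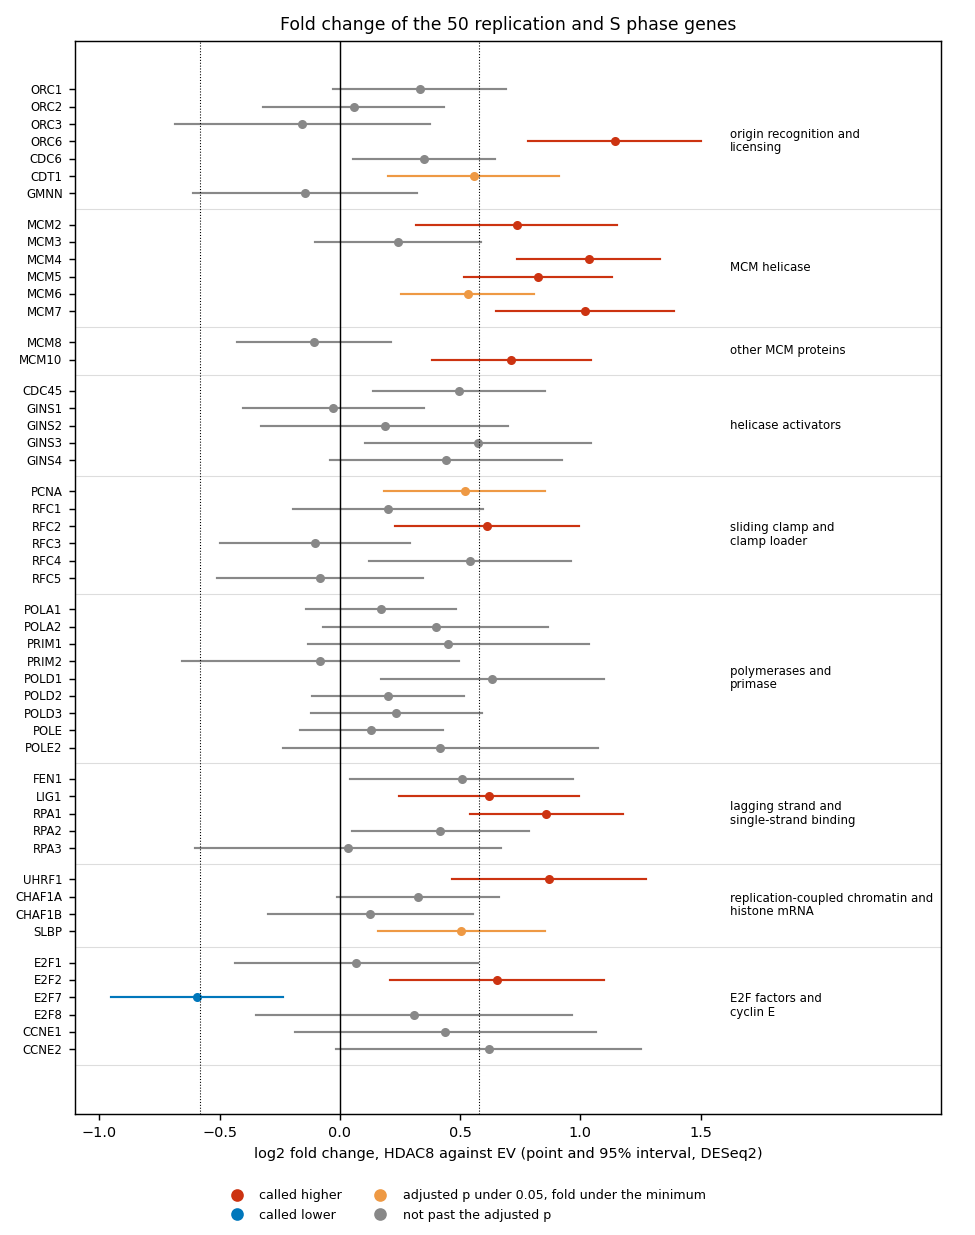
Log2 fold change of HDAC8 against EV for each of the 50 genes (x axis, point and 95% interval from DESeq2, 3 libraries a group), grouped by role. The 11 genes called higher are in red, E2F7, called lower, in blue, and CDT1, MCM6, PCNA and SLBP, which passed the adjusted p with a smaller fold, in orange; dotted lines mark the fold minimum of 0.58.

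The promoters were searched for the letters TTTNNCGC on either strand, the core of the element that E2F factors are known to bind, because many of the 50 genes moved in the same direction. Promoter windows from 250 bases before to 50 bases after the annotated start (RefSeq, GRCh38.p14) were found for 42 of the 50 genes, in 52 windows. MCM4, MCM5, GINS4, POLD3, RPA2, RPA3, E2F8 and CCNE2 had no entry. The letters occurred in at least 1 window of 25 of the 42 genes, or 59.5%, against 8.23% of all 27305 gene symbols and 6.89% of all 35116 windows. These backgrounds were not matched for base composition. Among matched genes the letters occurred in 6 of 9 called higher, in 0 of 1 called lower and in 19 of 32 not called. Genes with and without a call thus both carried them. Of the other replication and S phase genes described below, 14 of 34 matched had the letters, and of the mitosis genes 3 of 20. A match is a run of letters and not a measured binding site. The stretches below show the matches in capitals for the 6 called genes that had them and for MCM3 and MCM6, MCM helicase genes that were not called, each read 5′ to 3′ on the strand of the gene.
ORC6 (chr16:46689520-46689559, plus strand): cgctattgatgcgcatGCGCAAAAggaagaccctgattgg
MCM2 (chr3:127598405-127598432, plus strand): gaaccactTTTCGCGCGAAAcctggttg
MCM7 (chr7:100101561-100101600, minus strand): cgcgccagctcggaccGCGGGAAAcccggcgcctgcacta
LIG1 (chr19:48170435-48170474, minus strand): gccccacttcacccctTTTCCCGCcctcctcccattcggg
UHRF1 (chr19:4909373-4909412, plus strand): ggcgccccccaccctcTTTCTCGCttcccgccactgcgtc
E2F2 (chr1:23531248-23531326, minus strand): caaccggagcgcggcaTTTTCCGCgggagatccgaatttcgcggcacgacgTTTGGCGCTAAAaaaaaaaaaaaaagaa
MCM3 (chr6:52284869-52284932, minus strand): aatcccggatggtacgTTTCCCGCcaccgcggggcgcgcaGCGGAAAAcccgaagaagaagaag
MCM6 (chr2:135876568-135876611, minus strand): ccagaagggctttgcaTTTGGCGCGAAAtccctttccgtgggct
In MCM2 and MCM6 the capitals hold overlapping matches on both strands, in E2F2 the longer run does, and MCM3, MCM6, MCM7 and UHRF1 have further matches in their windows that are not shown.

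The origin recognition and licensing group had 7 genes, of which 1 was called higher, 5 had a log2 fold change above 0 and the median was 0.33. ORC6, the smallest subunit of the origin recognition complex, had the largest change of the 50 genes (ENSG00000091651, chromosome 16, 46689643 to 46698394, plus strand; gene positions are those of GENCODE release 44, GRCh38). Its level was 1338, 1104 and 1311 in EV 1 to EV 3 and 2477, 3163 and 2647 in HDAC8 1 to HDAC8 3. All HDAC8 libraries were far above all EV libraries, and the log2 fold change was 1.14 (SE 0.18, adjusted p = 2.56e-08 by DESeq2). The expected count of ORC6 was not a whole number in any of the 6 libraries, which means that some of its reads were shared with another gene. ORC1, ORC2 and ORC3, which belong to the same complex, had log2 fold changes of 0.33, 0.06 and -0.16, and none passed the adjusted p. Per kilobase of exon, ORC6 stood at 1.29, 1.06 and 1.02 times ORC2 in the EV libraries and at 2.29, 2.81 and 2.05 times in the HDAC8 libraries. This ratio, like the others given below, was chosen after its values were seen and carries no test.

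CDT1, which brings the MCM helicase to the origin, had 1492, 1960 and 1741 normalized counts in EV and 2817, 2288 and 2536 in HDAC8. The groups did not overlap, and CDT1 rose by the adjusted p but stayed under the fold minimum (log2 fold change 0.56, SE 0.18, adjusted p = 0.0217 by DESeq2). It missed the adjusted p in 6 of 14 other fits, namely limma-voom, the replicate block, GC-bin size factors (log2 fold change 0.36, adjusted p = 0.0928) and without EV 1, EV 3 or HDAC8 3, where the highest adjusted p was 0.189. GMNN, which encodes geminin, the inhibitor that holds CDT1 back after origins have fired, had 808.5, 780.8 and 782.2 in EV and 598.6, 728.2 and 817.8 in HDAC8. Its groups overlapped (log2 fold change -0.15, DESeq2 adjusted p = 0.822). The level of CDT1 per kilobase was 1.66, 2.25 and 2.00 times that of GMNN in EV and 4.22, 2.82 and 2.78 times in HDAC8. CDC6, the loading factor that works with CDT1, ran from 2564 to 2649 in EV and from 3145 to 3574 in HDAC8 without overlap, with a log2 fold change of 0.35 that did not pass (DESeq2 adjusted p = 0.109).

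MCM2 to MCM7 form the ring of the replicative helicase, each subunit being present once in the ring. This group had the highest median log2 fold change of the 9 role groups, 0.78, with 4 of 6 genes called higher, MCM6 past the adjusted p alone, and no overlap between EV and HDAC8 for 5 of the 6. MCM4 (ENSG00000104738, chromosome 8, 47960185 to 47978160, plus strand) had 6996, 7803 and 8237 normalized counts in EV and 12854, 17627 and 16687 in HDAC8. All HDAC8 libraries were well above all EV libraries, and the log2 fold change was 1.03 (SE 0.15, adjusted p = 6.87e-10 by DESeq2). MCM7 (ENSG00000166508, chromosome 7, 100092233 to 100101940, minus strand) had 5877, 7701 and 5927 in EV and 17270, 10373 and 11852 in HDAC8. HDAC8 1 was highest by a wide margin, but HDAC8 2 and HDAC8 3 also exceeded every EV library, and the log2 fold change was 1.02 (SE 0.19, adjusted p = 2.88e-06 by DESeq2). Of the MCM7 exons, 7.9% overlap AP4M1 on the opposite strand, which had 3.7% as many counts as MCM7.

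MCM5 (ENSG00000100297, chromosome 22, 35400134 to 35425431, plus strand) had 5600, 5943 and 4782 normalized counts in EV and 11261, 8407 and 9245 in HDAC8. The groups were well separated, with a log2 fold change of 0.83 (SE 0.16, adjusted p = 5.11e-06 by DESeq2). MCM2 (ENSG00000073111, chromosome 3, 127598410 to 127622436, plus strand) had 1884, 3185 and 2341 in EV and 5114, 3536 and 3678 in HDAC8. EV 2 came close to HDAC8 2, and the log2 fold change was 0.74 (SE 0.21, adjusted p = 0.00751 by DESeq2). MCM6 had 3144, 3070 and 2986 in EV and 4166, 4639 and 4488 in HDAC8. The replicates were close to each other and the groups did not overlap, but the log2 fold change of 0.53 (SE 0.14, adjusted p = 0.00281 by DESeq2) was under the fold minimum, and the adjusted p was 0.0549 without EV 3. MCM3 was the exception in the ring, with 3902, 4751 and 4162 in EV and 6300, 4326 and 4531 in HDAC8. Its groups overlapped and only HDAC8 1 was above EV 2, with a log2 fold change of 0.24 (SE 0.18, adjusted p = 0.46 by DESeq2) and a 95% interval of the fold from 0.931 to 1.5.

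Subunits of the ring can be compared per kilobase of exon within a library. The mean normalized count per kilobase in EV was 1310 for MCM7, 1170 for MCM3, 779 for MCM4, 749 for MCM5, 742 for MCM6 and 524 for MCM2. In HDAC8 the order was MCM7 at 2650, MCM4 at 1600, MCM3 at 1390, MCM5 at 1330, MCM6 at 1070 and MCM2 at 872. By these group means MCM3 went from the next below MCM7 to a place below MCM4. By library this held in HDAC8 2 and HDAC8 3, while in HDAC8 1 MCM3 stayed above MCM4. MCM4 stood at 0.663, 0.608 and 0.732 times MCM3 in EV and at 0.755, 1.51 and 1.36 times in HDAC8, where HDAC8 1 was only just above EV 3. MCM7 stood at 1.11, 1.19 and 1.05 times MCM3 in EV and at 2.01, 1.76 and 1.92 times in HDAC8. These ratios use the summed exon length of the annotation and not the isoforms present in the cells.

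Outside the ring, MCM10, which helps to activate the loaded helicase, rose with close agreement between replicates (ENSG00000065328, chromosome 10, 13161558 to 13211110, plus strand). It had 1425, 1353 and 1543 normalized counts in EV and 2299, 2291 and 2495 in HDAC8, with a log2 fold change of 0.71 (SE 0.17, adjusted p = 0.000491 by DESeq2). MCM8, a relative of the helicase subunits with a role in recombination, ran from 2538 to 3049 in EV and from 2465 to 2884 in HDAC8. Its groups overlapped (log2 fold change -0.11, DESeq2 adjusted p = 0.8).

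The 5 helicase activators, CDC45 and the 4 GINS subunits, had a median of 0.44. None of them passed the adjusted p in the fit reported, where 10.8% of genes at their expression level passed upward. Of the 5, an unadjusted DESeq2 p under 0.05 was reached by 2, GINS3 and CDC45, and edgeR and limma-voom called 0. GINS3 had the largest log2 fold change in the group, with 726.7, 717.3 and 671.9 normalized counts in EV and 844.0, 1284 and 1024 in HDAC8. The groups did not overlap, and the log2 fold change was 0.57 (SE 0.24, adjusted p = 0.0961 by DESeq2). CDC45 had 1432, 1605 and 1303 in EV and 2229, 2019 and 1874 in HDAC8, again without overlap (log2 fold change 0.50, SE 0.18, adjusted p = 0.0501 by DESeq2). In other fits CDC45 passed with at least 10 counts in every library, no filter, and GC-bin, total-count or upper-quartile size factors. There its adjusted p ran from 0.0144 to 0.048 by DESeq2. GINS3 passed with at least 10 counts in every library (DESeq2 adjusted p = 0.0402) and without HDAC8 1 (DESeq2 adjusted p = 0.0168). Both genes missed the adjusted p in the remaining fits. GINS1, GINS2 and GINS4 overlapped between the groups, with log2 fold changes of -0.03, 0.19 and 0.44.

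In the sliding clamp and clamp loader group 1 of 6 genes was called higher and the median was 0.36. PCNA, the clamp that holds the polymerases on DNA, had 2533, 2799 and 2392 normalized counts in EV and 3083, 4194 and 3790 in HDAC8. The groups did not overlap, and PCNA rose by the adjusted p with a log2 fold change under the minimum (0.52, SE 0.17, adjusted p = 0.0229 by DESeq2). In 7 of 14 other fits it missed the adjusted p, under edgeR, limma-voom and the replicate block and without EV 1, EV 3, HDAC8 2 or HDAC8 3, with a log2 fold change from 0.42 to 0.63 over the 14 and a highest adjusted p of 0.174. By normalized count per kilobase PCNA was the highest of the 50 genes in EV, at 1840, and next to MCM7 in HDAC8, at 2630. RFC2, a subunit of the loader that opens the clamp (ENSG00000049541, chromosome 7, 74231499 to 74254458, minus strand), had 977.3, 1251 and 1169 in EV and 1837, 1556 and 1796 in HDAC8. It rose with a log2 fold change of 0.61 (SE 0.20, adjusted p = 0.0186 by DESeq2). RFC4 also lay above EV in all HDAC8 libraries but did not pass (log2 fold change 0.54, DESeq2 adjusted p = 0.0772), and RFC1, RFC3 and RFC5, at 0.20, -0.10 and -0.08, overlapped between the groups.

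In the fit reported DESeq2 called 0 of the 9 polymerase and primase genes, where 8.5% of genes at their expression level were called higher. Their median of 0.23 was the lowest of the role groups. An unadjusted p under 0.05 was reached by 1 of them, POLD1, which limma-voom did not call. POLD1 was called higher in 5 of 14 other fits, with a log2 fold change from 0.31 to 0.81 over the 14. The 5 were edgeR, total-count size factors, at least 10 counts in every library, and without EV 2 or HDAC8 2. POLD1, the catalytic subunit of polymerase delta, had the largest log2 fold change of the 9, with 1840, 2212 and 1523 normalized counts in EV and 4030, 2153 and 2468 in HDAC8. HDAC8 1 was far above the rest while HDAC8 2 was below EV 2, and the log2 fold change of 0.63 had an SE of 0.24 (DESeq2 adjusted p = 0.0559). POLE, the catalytic subunit of polymerase epsilon, had 6812, 6786 and 6329 in EV and 8473, 6184 and 7162 in HDAC8, with a log2 fold change of 0.13 and a 95% interval of the fold from 0.892 to 1.34. POLA1, the catalytic subunit of polymerase alpha, was the only gene of the 9 without overlap, from 2409 to 3006 in EV and from 3016 to 3218 in HDAC8, at a log2 fold change of 0.17 (DESeq2 adjusted p = 0.613). The other 6 genes, POLA2, PRIM1, PRIM2, POLD2, POLD3 and POLE2, had log2 fold changes from -0.08 for PRIM2 to 0.45 for PRIM1.

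Among the 5 genes of lagging strand joining and single-strand binding, 2 were called higher and the median was 0.51. RPA1, the large subunit of the protein that coats unwound DNA (ENSG00000132383, chromosome 17, 1829702 to 1900082, plus strand), had 3992, 4207 and 3530 normalized counts in EV and 8329, 5993 and 6949 in HDAC8. The groups were well apart, with a log2 fold change of 0.86 (SE 0.16, adjusted p = 4.04e-06 by DESeq2). Of its exons, 3.2% overlap SMYD4 on the opposite strand, which had 30.5% as many counts. Its partners did not pass, RPA2 at 0.42 without overlap (DESeq2 adjusted p = 0.136) and RPA3 at 0.03 with overlap (DESeq2 adjusted p = 0.979). Per kilobase of exon, RPA1 stood at 7.04, 5.58 and 3.98 times RPA3 in EV and at 11.8, 6.31 and 11.6 times in HDAC8. The groups overlapped in this ratio. LIG1, the ligase that seals the joined pieces (ENSG00000105486, chromosome 19, 48115445 to 48170603, minus strand), had 1153, 1291 and 1300 in EV and 2130, 1619 and 2003 in HDAC8. LIG1 rose with a log2 fold change of 0.62 (SE 0.19, adjusted p = 0.0135 by DESeq2). FEN1, the nuclease that trims the pieces before joining, had 1677, 1522 and 1360 in EV and 3019, 1777 and 1675 in HDAC8, where the value of HDAC8 3 was just below that of EV 1. Its log2 fold change of 0.51 did not pass (SE 0.24, adjusted p = 0.156 by DESeq2).

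The group of replication-coupled chromatin and histone mRNA had 4 genes, of which 1 was called higher, and a median of 0.41. UHRF1, which brings the maintenance DNA methyltransferase DNMT1 to newly copied DNA (ENSG00000276043, chromosome 19, 4903080 to 4962154, plus strand), had 2388, 3216 and 2550 normalized counts in EV and 6607, 4185 and 4101 in HDAC8. All HDAC8 libraries were above EV 2, and the log2 fold change was 0.87 (SE 0.20, adjusted p = 0.000474 by DESeq2). As for ORC6, the expected count of UHRF1 was not whole in any library. SLBP, which binds the stem-loop of histone mRNA, had 1595, 1543 and 1762 in EV and 2024, 2538 and 2388 in HDAC8. SLBP rose by the adjusted p, with a log2 fold change under the minimum (0.50, SE 0.18, adjusted p = 0.0372 by DESeq2). It missed the adjusted p in 8 of 14 other fits, under edgeR, limma-voom and the replicate block and without any 1 library other than HDAC8 1, with a log2 fold change from 0.44 to 0.59 over the 14 and a highest adjusted p of 0.176. CHAF1A and CHAF1B, subunits of the histone chaperone CAF-1, had log2 fold changes of 0.32 and 0.13 and did not pass.

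The last group held 4 E2F genes and the E cyclins, with 1 gene called higher, 1 called lower and a median of 0.37. E2F2, an activator of S phase genes (ENSG00000007968, chromosome 1, 23506438 to 23531233, minus strand), had 765.5, 998.4 and 677.8 normalized counts in EV and 1379, 1282 and 1176 in HDAC8. It rose with a log2 fold change of 0.65 (SE 0.23, adjusted p = 0.0352 by DESeq2). E2F7, an atypical E2F that represses such genes (ENSG00000165891, chromosome 12, 77021248 to 77065569, minus strand), had 3321, 2673 and 3436 in EV and 1798, 2422 and 2025 in HDAC8. All HDAC8 libraries were below all EV libraries, and the log2 fold change was -0.59 (SE 0.18, adjusted p = 0.0127 by DESeq2). The level of E2F2 per kilobase was 0.265, 0.430 and 0.227 times that of E2F7 in EV and 0.883, 0.610 and 0.669 times in HDAC8.

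E2F1, also an activator, had 788.5, 1141 and 649.2 normalized counts in EV and 956.8, 853.1 and 894.0 in HDAC8. The EV libraries were spread around the HDAC8 libraries, and the log2 fold change was 0.07 (SE 0.26, adjusted p = 0.941 by DESeq2). E2F8, the close relative of E2F7, had overlapping groups and a log2 fold change of 0.31 (DESeq2 adjusted p = 0.688). CCNE1 and CCNE2, the cyclins that drive entry into S phase, had log2 fold changes of 0.44 and 0.62 with overlapping groups. CCNE2 had 629.2, 361.4 and 672.8 in EV and 543.0, 968.8 and 1041 in HDAC8, so HDAC8 1 lay among the EV libraries while HDAC8 2 and HDAC8 3 lay above them. Of its exons, 37.0% overlap INTS8 on the opposite strand, and the use of strand in counting is not given in the sources used here.

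**Figure D2:**
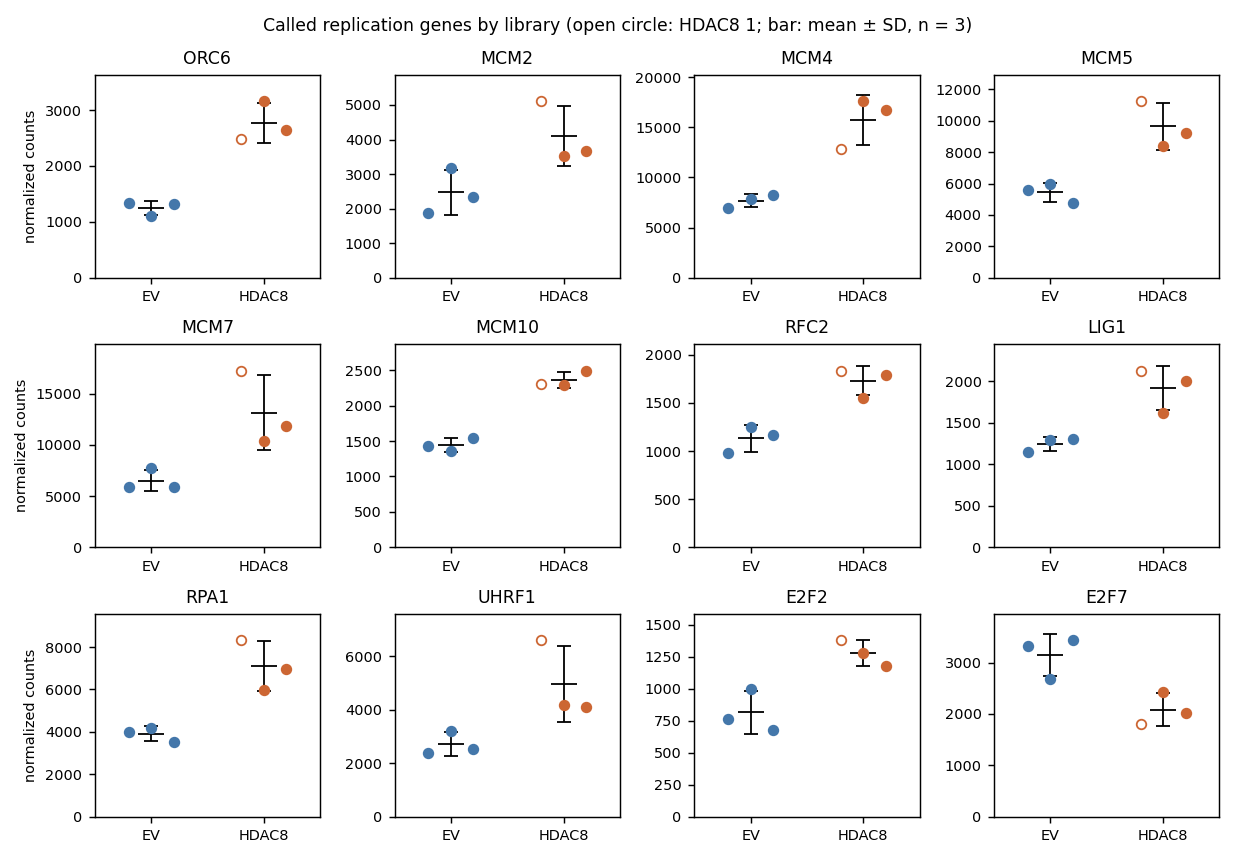
Normalized counts (y axes, each from 0) in each library for the 11 genes called higher and E2F7, with the mean ± SD of the 3 libraries of a group; the open circle is HDAC8 1. The groups do not overlap in any of the 12 panels, and HDAC8 1 is the highest HDAC8 library in MCM2, MCM5, MCM7, RFC2, LIG1, RPA1, UHRF1 and E2F2.

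Precision varied among the 34 genes that did not pass the adjusted p. The 95% interval of the fold lay between 1/1.5 and 1.5 for 10 of them, namely ORC2, MCM8, GINS1, RFC3, RFC5, POLA1, POLD2, POLE, CHAF1B and E2F1. For the other 24 a change of 1.5-fold lay inside the interval, as for CCNE2, whose fold had an interval from 0.988 to 2.38. The interval reached beyond 1.5-fold also for GINS3 (1.08 to 2.06), CDC45 (1.10 to 1.81) and POLD1 (1.12 to 2.14).

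HDAC8 1 differed from HDAC8 2 and HDAC8 3 in opposite directions for different genes. It was the highest HDAC8 library for 17 of the 50 genes and the lowest for 26, against 37.2% and 49.4% of the genes at their expression level. It reached at least 1.5 times the mean of the other HDAC8 libraries for 4 genes, MCM7, POLD1, FEN1 and UHRF1, against 9.41% of those genes. The lowest values relative to HDAC8 2 and HDAC8 3 were those of CCNE2 (log2 difference -0.89), PRIM1 (-0.81) and ORC3 (-0.80). Against the EV mean, the median log2 difference of the 50 genes was 0.29 in HDAC8 1, 0.39 in HDAC8 2 and 0.38 in HDAC8 3. The median was thus above the EV mean in each HDAC8 library.

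The difference between HDAC8 1 and the others moved with base composition. Across the 50 genes, which share the same libraries and depths, Pearson's r between the GC content of the annotated transcripts and the log2 difference of HDAC8 1 from HDAC8 2 and HDAC8 3 was 0.754, and across 9519 genes at their expression level it was 0.586. Between GC content and the log2 fold change of HDAC8 against EV, r was 0.379 over the 50 genes and 0.144 over the 9519. With size factors set within 20 bins of GC content the median log2 fold change of the 50 genes was 0.40 and 12 genes were called higher. LIG1, at 0.52, and E2F2, at 0.55, were no longer called in that fit, and CCNE2, MCM6 and RFC4 were. E2F7 then passed the adjusted p at a log2 fold change of -0.55, under the fold minimum (DESeq2 adjusted p = 0.000683). Without HDAC8 1 the median was 0.38 and 11 genes were called higher. These were not the same 11, since MCM2, RFC2, LIG1 and E2F2 were no longer called and CCNE2, GINS3, PCNA and SLBP were, and E2F7 was no longer called lower. The folds of the lost genes stayed near or just under the minimum. MCM2 at 0.55, RFC2 at 0.56, LIG1 at 0.54 and E2F7 at -0.50 still passed the adjusted p, at 0.0364, 0.0345, 0.0344 and 0.0208 by DESeq2, whereas E2F2 kept its fold at 0.59 and missed the adjusted p (0.0723). In that fit the log2 fold change of POLD1 fell to 0.31, that of FEN1 to 0.18 and that of MCM3 to 0.05, while that of CCNE2 was 0.86 and that of PRIM1 was 0.68.

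**Figure D3:**
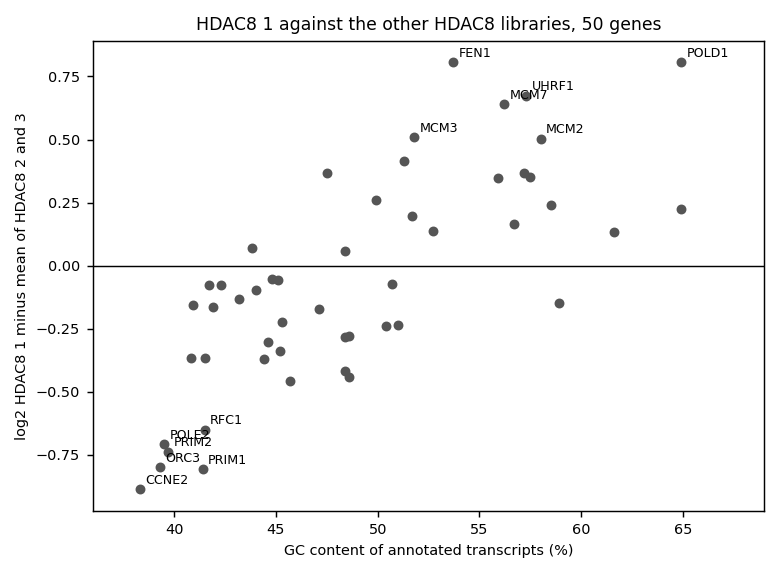
Log2 difference of HDAC8 1 from the mean of HDAC8 2 and HDAC8 3 (y axis) against the GC content of the annotated transcripts in percent (x axis), each point being 1 of the 50 genes; genes at least 0.5 from 0 are named. CCNE2, ORC3, PRIM1, PRIM2, POLE2 and RFC1 are low on both axes, and POLD1, UHRF1 and MCM7 are high on both (r = 0.754).

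**Figure D4:**
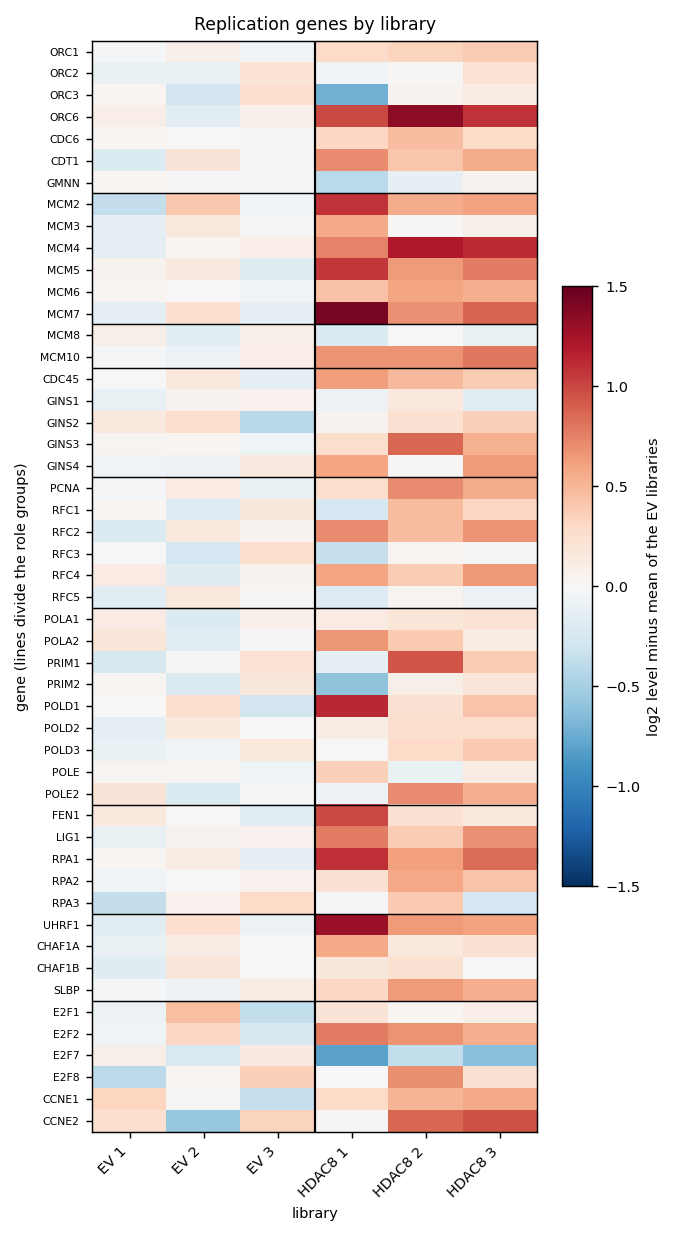
Log2 level of each of the 50 genes in each library minus the mean of the EV libraries (colour, red above and blue below), with lines between the role groups. The HDAC8 columns are red for most genes, E2F7 is blue in all HDAC8 libraries, and HDAC8 1 has both the deepest red (MCM7) and blues not seen in HDAC8 2 and HDAC8 3 (ORC3, PRIM2).

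MCM4, MCM5, MCM7, MCM10, ORC6, RPA1 and UHRF1 were called higher in the fit reported and in all 14 other fits of each gene, which changed the test, the scaling, the filter or left out a library in turn. MCM2 lost its call in 3 of the 14, RFC2 in 6, LIG1 and E2F7 in 7 and E2F2 in 8. Over the 14 fits the log2 fold change ran from 0.55 to 0.96 for MCM2, from 0.51 to 0.69 for RFC2, from 0.52 to 0.73 for LIG1, from 0.53 to 0.82 for E2F2 and from -0.71 to -0.50 for E2F7. Leaving out EV 1, EV 3 or HDAC8 1 each ended the calls of these 5 genes, leaving out HDAC8 3 ended all of them but that of MCM2, and leaving out HDAC8 2 ended that of E2F2. The highest adjusted p was 0.116 for MCM2, 0.165 for RFC2, 0.12 for LIG1, 0.133 for E2F7 and 0.232 for E2F2. With EV 1 or EV 3 left out, 7 genes were called higher. A test of whether the log2 fold change exceeds 0.58 in size, rather than whether it differs from 0, called 0 of the 50 genes, where it called 1.39% of all genes higher and 1.38% lower. By the unadjusted p of that test 3 of the 50 passed, ORC6, MCM4 and MCM7.

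Genes of the same pathway outside the 50 were counted in the same way. Of 41 other replication and S phase genes 3 were called higher and 1 lower, 23 had a log2 fold change above 0, and the median was 0.05. At the expression level of the 50, 8.50% of genes were called higher and 7.65% lower. DNMT1, the maintenance methyltransferase that UHRF1 recruits, had 7696, 8842 and 7755 normalized counts in EV and 15347, 11978 and 13053 in HDAC8 (log2 fold change 0.73, SE 0.14, adjusted p = 8.94e-06 by DESeq2). RECQL4, a helicase that takes part in replication initiation, had 2099, 2574 and 2156 in EV and 7451, 3060 and 4048 in HDAC8, with HDAC8 1 far above the others (log2 fold change 1.09, SE 0.25, adjusted p = 0.000346 by DESeq2). WDHD1, which couples the helicase to polymerase alpha, rose with a log2 fold change of 0.67 (SE 0.17, adjusted p = 0.00202 by DESeq2). The gene that fell was CDK2, the kinase partner of cyclin E, from 18355, 18612 and 18545 in EV to 9208, 11824 and 11647 in HDAC8. Its EV libraries were nearly equal and its HDAC8 libraries all much lower (log2 fold change -0.77, SE 0.14, adjusted p = 1.04e-06 by DESeq2). CDK2 lies within the span of PMEL, a pigment gene on the opposite strand that shares 2.3% of the CDK2 exon bases and had 1074.9% as many counts. PMEL had 169800, 247772 and 182523 normalized counts in EV and 147944, 89540 and 94276 in HDAC8, and its part in the CDK2 values was not tested.

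Of 9 further E2F, DP and pocket protein genes, E2F5 was called higher, from 337.6, 241.0 and 194.1 normalized counts in EV to 338.6, 764.0 and 643.6 in HDAC8. HDAC8 1 was level with EV 1, and the log2 fold change was 1.18 (SE 0.38, adjusted p = 0.0177 by DESeq2). The exons of E2F5 overlap RBIS on the opposite strand over 16.6% of their bases, and RBIS had 165.8% as many counts. The median of the 9 was 0.20.

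Of 25 mitosis genes 1 was called higher and 0 lower, with a median of 0.08. Among these mitosis genes an unadjusted p under 0.05 with the same fold minimum gave 1 lower, and edgeR and limma-voom gave 0. AURKB, the kinase of the chromosomal passenger complex, ran from 1953 to 2631 in EV and from 3119 to 3817 in HDAC8 (log2 fold change 0.61, SE 0.17, adjusted p = 0.00587 by DESeq2). The count of mitosis genes called higher was 0 without EV 1, without EV 3 or without HDAC8 2, and 2 without HDAC8 1. By the adjusted p alone, the spindle motors KIF11 and KIF23 rose with log2 fold changes of 0.51 and 0.46. MKI67, the proliferation marker, and PLK1, a mitotic kinase, fell with log2 fold changes of -0.55 (DESeq2 adjusted p = 0.00149) and -0.45 (DESeq2 adjusted p = 0.0304). MKI67 had 32444, 36940 and 42499 normalized counts in EV and 23172, 26075 and 27427 in HDAC8, without overlap.

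**Figure D5:**
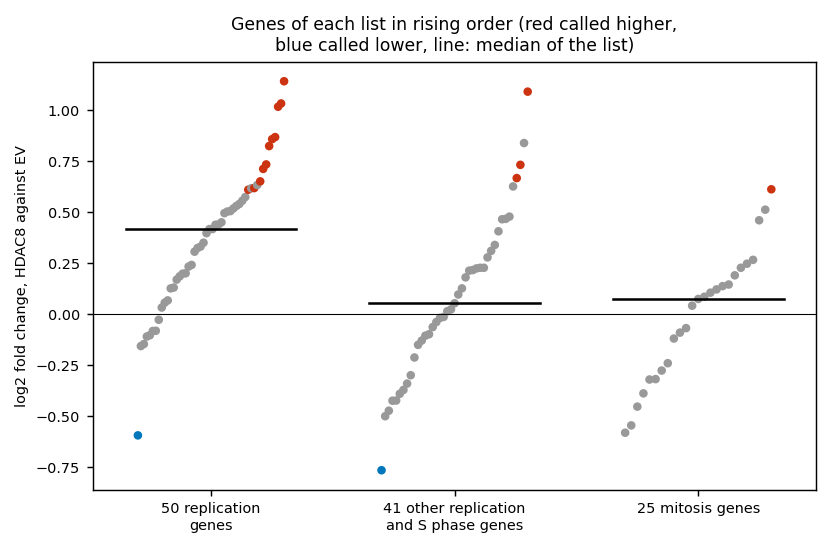
Log2 fold change of HDAC8 against EV (y axis) for the 50 replication genes, 41 other replication and S phase genes and 25 mitosis genes, each list in rising order with its median as a line; red points were called higher and blue points lower. The medians are 0.42, 0.05 and 0.08; the lists were written with earlier results of these data known, and the difference between them was not tested.

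The log2 fold change of each gene was set beside that of its 5 nearest genes on each side of the chromosome position. Only neighbours with a mean level at least that of CCNE1, the lowest gene of the list, were used. The neighbours were not otherwise matched for expression. For the 11 genes called higher the median log2 fold change of these neighbours had a median of 0.32 and ran from -0.15 for MCM10 to 0.55 for ORC6. For the 38 genes not called it had a median of -0.03 and ran from -0.58 to 0.46. Of the 10 neighbours, 8 had a log2 fold change above 0 for each of ORC6, MCM4 and UHRF1. For MCM7, RFC2, LIG1 and RPA1 it was 9 of 10 each, for MCM2 6, for MCM5 5, for E2F2 4 and for MCM10 2. Among genes not called it ran from 0 of 10 for E2F1 to 10 of 10 for POLD3. GINS4, RFC1, POLD2, CHAF1A and SLBP, also not called, had 9 of 10 each. ORC2, GINS3, RFC3, RFC5, PRIM2 and E2F8, not called either, had 2 of 10 each.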

How the data were processed

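RNA-seq libraries of WM164 cells carrying an empty vector (EV, n = 3) or an HDAC8 vector (n = 3) were grouped by the labels. The authors used Trimmomatic for trimming, STAR for alignment against transcripts and RSEM for quantification, and deposited expected counts, an estimated count per gene that shares ambiguous reads between genes and is not scaled between libraries. Genome build, annotation and use of strand are not given in the sources used here. Expected counts were rounded.

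The groups were compared in DESeq2 1.42.0 (R 4.3.3) with a two-sided Wald test, no covariates and Benjamini-Hochberg adjustment. Size factors were the DESeq2 default and ran from 0.918 to 1.17. Genes whose counts summed to 10 or more entered the fit (26162), and 21021 of them had an adjusted p. A call needed an adjusted p under 0.05 and a log2 fold change of 0.58 or more in either direction. Intervals are at the 95% level. Total counts were 34741083 to 42041462 per library, and all value columns belonged to the 6 libraries. No pair of libraries in a group agreed within sampling noise.

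The 50 genes and the other lists were chosen with earlier results of these data known. Named genes were those called, those past the adjusted p, the largest change in each role group and, in other lists, up to 5 called genes. Other genes were named after their values were seen.

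Alternatives were edgeR 4.0.16 quasi-likelihood and limma 3.58.1 voom (TMM), total-count, upper-quartile and GC-bin size factors (20 bins), no filter, a minimum of 10 counts per library, the replicate number as a block, a test against the fold minimum, unadjusted p and each library left out. Gene positions, exon length and GC content came from GENCODE release 44, and promoter sequences from RefSeq. Fits were tested on simulated data.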

Additional observations from a re-analysis of the deposited data

How the results depend on the processing

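The median log2 fold change of the 50 genes ran from 0.38 to 0.45 over all settings, and the count of genes called higher (11) stayed within 1.5 times except under the test against the fold minimum (0) and in the range of 7 to 14 with a library left out, where 7 were left without EV 1 and without EV 3. The count called lower, 1 (E2F7), was 0 with GC-bin and total-count size factors, with the replicate block and against the fold minimum, and 0 to 1 with a library left out. By the adjusted p alone 15 genes were higher, 9 by limma-voom and 9 with the block, and 7 to 17 with a library left out, and 1 was lower, 0 with the block and 0 to 1 with a library left out. Over all genes, 1170 higher and 1143 lower calls became 292 and 291 against the fold minimum and 1839 and 1856 by the unadjusted p, with lower calls from 746 (without EV 3) to 1378 with a library left out. The other replication genes gave 0 higher and 0 lower calls against the fold minimum and 5 higher by the unadjusted p. Mitosis genes called higher were 0 against the fold minimum and 0 to 2 with a library left out, and those called lower were 1 with at least 10 counts in every library, with GC-bin factors and by the unadjusted p, and 0 to 1 with a library left out.

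Directions turned only for genes that were not called. With GC-bin factors the log2 fold change was -0.062 for E2F1, 0.083 for GINS1 and 0.011 for MCM8, and GINS1 was at 0.016 with total-count factors. With a library left out the range was -0.105 to 0.325 for E2F1, -0.127 to 0.044 for GINS1, -0.022 to 0.162 for ORC2, -0.294 to 0.063 for ORC3, -0.225 to 0.125 for PRIM2, -0.225 to 0.027 for RFC3 and -0.164 to 0.184 for RPA3. The median difference of HDAC8 1 from HDAC8 2 and HDAC8 3, -0.09, was 0.01 with total-count size factors. The cause of these changes was not tested.

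Same-numbered libraries correlated at -0.0273, -0.0663 and 0.0399 in their deviations from the group means, and libraries of different number at -0.111 to 0.15. Such values from 3 libraries a group cannot show whether the numbers pair the samples, and the fit reported used no pairing. With the replicate block 8 genes were called higher and 0 lower. With 3 libraries a group, 24 of the 34 genes that did not pass had a 1.5-fold change inside their interval.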
